A study of Mus musculus with 24 samples.

Results

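The 38 genes described here are antiviral genes induced by type I interferon. They were chosen by name, as the rows of the expression table for the Ifit, Oas and Mx genes, the RIG-I-like RNA sensors, the interferon-induced PARP and TRIM genes and other effectors of the same response, and all 38 were found among 22009 named genes. CD4+ T cells from the spleens of adult wildtype C57BL/6 mice were sequenced in 24 libraries. All cultures received anti-CD3 and anti-CD28 antibodies; Th0 cultures received nothing more, Th1 cultures IL-12 and an antibody to IL-4 in addition, and Th2 cultures IL-4 with antibodies to IL-12 and IFN-γ. Each of the 3 conditions was sequenced once at 4, 8, 12, 16, 20 and 24 h, and resting cells from before culture gave 2 libraries. For the remaining 4 libraries transcription was blocked with actinomycin after 16 h of stimulation, and RNA was taken 0, 1, 2 or 4 h later. Which of the 3 conditions these cells had been in is not given. The cells were enriched by magnetic negative selection, and the study describes those of the time course as a pool from several mice. Variation between mice is therefore not measured. Each condition is 1 series of cultures, so time points stand in for replicates and p-values measure the spread between these libraries, which may be technical. Resting and cultured libraries have different tags in their titles, and a difference in preparation cannot be told apart from activation.

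Type I interferons bind the receptor made of IFNAR1 and IFNAR2, and the kinases JAK1 and TYK2 then activate a transcription factor complex that contains IRF9 and binds interferon-stimulated response elements. IFN-γ acts through its own receptor, its signal reaches gamma-activated sites, and many genes answer to both pathways. The proteins made in response detect viral RNA, degrade it, block its translation or hold back the release of virus. T cells express many of these genes in the absence of infection.

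Expression was measured as RPKM, the number of reads scaled to the length of the transcript and to the mapped reads of the library. The libraries held between 17512385 and 33017133 mapped reads over the time course and between 18052931 and 25735543 after actinomycin, as recovered from the steps in the RPKM values. Differences are given on the log2(RPKM + 0.5) scale, which understates changes of low genes, and a gene was called changed at a limma adjusted p under 0.05 and at least 2-fold. Of the 38 genes, 36 passed the filter of a mean of at least 1 RPKM over the 18 cultures and 37 over the cultures with the resting cells; Ifi44 and, between conditions, Mx1 did not. Of 12 CD4 T cell markers, 9 were in the table, and all 9 had a mean of at least 1 RPKM in every group. At rest the same held for the 5 CD8 T cell, 9 NK cell, 12 B cell and 17 monocyte and macrophage markers in the table.

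Promoter sequences are shown first, because the core of the interferon-stimulated response element was frequent among these genes. RefSeq promoters (GRCm38.p6, from 250 bases before the transcription start to 50 after) were found for 29 of the 38 genes. The core searched was GAAANNGAA on either strand, and overlapping matches were counted apart. It was present for 15 of the 29 genes (51.7%), against 8.95% of 8181 genes that passed the expression filter and had a promoter, and 9.76% of all 27025 genes with one. The gamma-activated site TTCNNNGAA was present for 8 of the 29 genes (27.6%), against 8.47% and 9.55% respectively. A match of letters is not evidence that a factor binds there.

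The stretches below are taken from the promoters of 6 members in which the core lies before the transcription start, with every core in capitals. They were picked to show single and repeated cores in genes that are followed through the results. Where capitals run longer than the core, cores overlap, and cores on the other strand appear as the reverse complement.
Isg15, chr4:156200841-156200931 (minus strand): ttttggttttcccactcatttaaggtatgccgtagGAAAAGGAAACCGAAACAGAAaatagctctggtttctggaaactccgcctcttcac
Ifit1, chr19:34640745-34640848 (plus strand): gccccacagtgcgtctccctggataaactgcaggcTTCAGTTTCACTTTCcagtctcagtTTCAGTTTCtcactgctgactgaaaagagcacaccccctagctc
Ifit3, chr19:34583373-34583470 (plus strand): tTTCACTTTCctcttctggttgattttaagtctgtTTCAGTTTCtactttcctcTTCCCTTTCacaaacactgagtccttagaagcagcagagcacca
Oas3, chr5:120777685-120777769 (minus strand): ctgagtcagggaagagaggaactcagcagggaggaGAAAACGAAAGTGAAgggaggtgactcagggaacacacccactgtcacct
Bst2, chr8:71537553-71537637 (minus strand): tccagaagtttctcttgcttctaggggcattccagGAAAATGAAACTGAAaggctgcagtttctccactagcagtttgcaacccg
Rsad2, chr12:26456528-26456606 (minus strand): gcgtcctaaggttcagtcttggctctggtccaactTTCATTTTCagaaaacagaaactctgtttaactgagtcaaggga
Isg15, Ifit1 and Ifit3 each held 3 cores, Oas3 and Bst2 2, and Rsad2 1. In Isg15 the first core began 78 bases before the start and the last 66 bases before it, so that the 3 overlapped. The cores of Bst2 began 130 and 124 bases before the start. The 6 genes had different courses in culture, as described below: Bst2 was lowest early and higher later, Rsad2 was highest at 4 h in all 3 conditions, and Ifit3 peaked at 8 h in Th0.

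Compared with Th0, the Th2 cultures had lower levels of all 36 genes tested, with a median log2 difference of -1.12 against 0.00 for all 10737 genes tested. Of the 36, 24 were called lower, and none was called higher. Among all genes, 1.83% were called lower in Th2. Compared with Th1, 35 of the 36 were lower in Th2, 18 of them were called, and the median was -1.004 against 0.02 for all genes. Among all genes, 1.39% were called lower in this comparison. The 2 comparisons share the Th2 libraries and are not independent. Th2 cultures differed from Th0 cultures in 3 agents at once, which cannot be told apart here. Because these are bulk cultures, fewer cells expressing a gene and less RNA per cell cannot be told apart either.

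The 3 conditions were also ranked at each time point. Th2 was the lowest of the 3 at all 6 time points for 27 of the 38 genes. Among the 36 genes tested this held for 26, whereas it held for 7.84% of all genes. At 4 h, 32 of the 38 genes were lower in Th2 than in Th0, with a median log2 difference of -0.47; at 8 h 37 were lower, with a median of -1.36. The median was -1.26 at 12 h, -1.40 at 16 h, -1.29 at 20 h and -0.98 at 24 h. The median of all genes was between -0.07 and 0.04 at the same times, and 54.8% of all genes were lower in Th2 at 4 h and 49.7% at 8 h. Against Th1 the median went from -0.52 at 4 h to -1.82 at 16 h and -0.93 at 24 h.

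**Figure D1:**
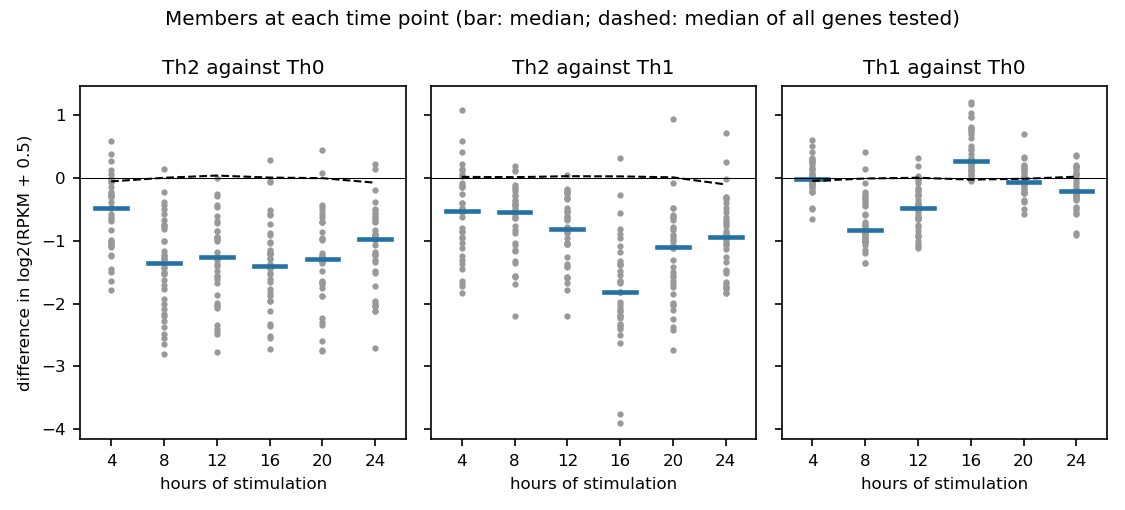
Difference in log2(RPKM + 0.5) between 2 conditions for each of the 38 genes (grey points) at each time point in hours, with their median (blue bar) and the median of all genes tested (dashed line). In Th2 against Th0 the median of the members was lowest at 16 h (-1.40), in Th2 against Th1 also at 16 h (-1.82), and in Th1 against Th0 it was below 0 at 8 h (-0.83) and above 0 at 16 h (0.27).

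**Figure D2:**
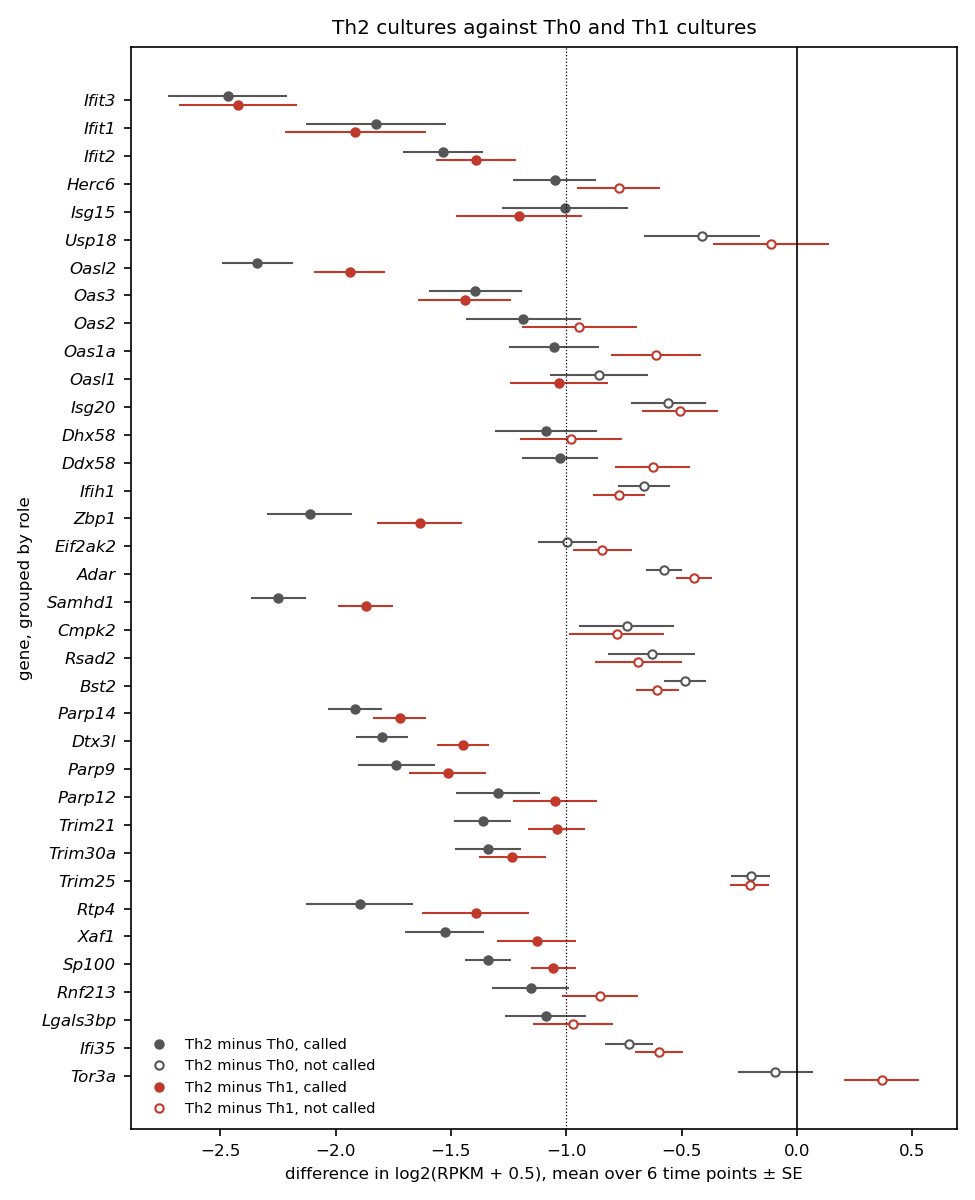
Difference in log2(RPKM + 0.5) of Th2 from Th0 (grey) and from Th1 (red) for the 36 genes tested, as the mean over 6 time points with its SE from limma. Filled points passed the threshold of an adjusted p under 0.05 and a 2-fold difference (dotted line), and Ifit3 (-2.47 and -2.42) lay farthest from 0.

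The IFIT proteins carry tetratricopeptide repeats and bind viral RNA, IFIT1 that with an incompletely capped 5′ end. All 3 genes were called lower in Th2 in both comparisons. Ifit3 (chr19:34583531-34588731, plus strand, GRCm38) was at 18.2 and 18.7 RPKM at rest. In Th0 it was at 20.5, 41.2, 24.7, 17.1, 15.2 and 8.33 RPKM at 4, 8, 12, 16, 20 and 24 h. Its levels in Th1 were 31.6, 27.1, 16.3, 39.5, 15.2 and 4.33 RPKM, and in Th2 9.57, 5.50, 3.17, 2.17, 1.86 and 0.851 RPKM at the same times. For the genes that follow, the 6 values of a condition are likewise in order of time. Every Th2 value of Ifit3 lay below the Th0 and Th1 values of its time point, and the ranges of Th2 and Th0 met only where Th2 at 4 h exceeded Th0 at 24 h. The log2 difference was -2.47 ± 0.26 (SE; adjusted p = 5.83e-06, limma) from Th0 and -2.42 ± 0.26 (adjusted p = 8.16e-06, limma) from Th1. Of the 50-base windows in the Ifit3 transcript, 51.2% also occur in its near-copy Ifit3b, so the level of either gene alone is uncertain. For Ifit3 the number of reads could be recovered; the value of 0.851 RPKM in Th2 at 24 h rests on 38 reads (exact Poisson 95% interval 0.602 to 1.17 RPKM), and that of 8.33 RPKM in Th0 on 390 reads (7.52 to 9.20). These intervals cover counting error only.

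Ifit1, the member that binds such RNA, was at 13.2 and 13.498 RPKM at rest, 11.9, 21.9, 10.8, 7.43, 7.39 and 4.08 RPKM in Th0, 17.1, 12.9, 8.79, 17.8, 8.10 and 3.27 RPKM in Th1 and 11.8, 4.78, 2.21, 0.863, 1.11 and 0.677 RPKM in Th2. At 4 h the Th0 and Th2 libraries were alike, with 95% intervals of 11.05 to 12.7 and 10.9 to 12.8 RPKM, and by 16 h they had come apart, with 6.78 to 8.13 and 0.656 to 1.12 RPKM. Ifit2 had the smallest difference of the 3, -1.53 ± 0.17 from Th0. It was at 24.4 and 23.8 RPKM at rest, 25.6, 30.5, 16.9, 15.2, 12.4 and 11.3 RPKM in Th0, 31.3, 17.2, 13.9, 22.0, 10.5 and 8.83 RPKM in Th1 and 11.9, 5.51, 4.26, 4.68, 4.67 and 5.57 RPKM in Th2. The Th0 and Th2 values of Ifit2 overlapped only in that Th2 at 4 h was above Th0 at 24 h.

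ISG15 is a ubiquitin-like protein that is joined to other proteins by ligases of the HERC family and removed by USP18, which also restrains signalling from the type I interferon receptor. Isg15 was at 47.8 and 47.8 RPKM at rest, 31.7, 30.0, 14.3, 10.9, 8.44 and 7.49 RPKM in Th0, 38.05, 25.1, 11.7, 22.9, 14.1 and 6.07 RPKM in Th1 and 41.5, 17.7, 7.18, 4.13, 3.09 and 1.34 RPKM in Th2. It was highest in Th2 at 4 h and lowest there from 8 h on. Its mean difference from Th0 of -1.004 ± 0.27 (adjusted p = 0.0127, limma) lay just past 2-fold. Herc6, a ligase for ISG15 in mice, was at 14.6 and 14.4 RPKM at rest, 9.18, 11.2, 5.88, 4.58, 3.57 and 3.71 RPKM in Th0, 10.4, 5.10, 3.55, 6.39, 3.61 and 2.34 RPKM in Th1 and 5.51, 3.30, 2.17, 1.71, 1.604 and 2.31 RPKM in Th2, with a difference of -1.05 ± 0.18 from Th0. Usp18 differed least. Its levels were 19.2 and 19.9 RPKM at rest, 17.5, 19.1, 9.92, 6.78, 7.503 and 6.49 RPKM in Th0, 12.2, 7.19, 6.14, 12.2, 7.60 and 5.90 RPKM in Th1 and 26.4, 8.24, 4.74, 4.38, 5.33 and 7.18 RPKM in Th2. At 4 h Th2 was the highest of the 3 and at 24 h again, and the mean differences of -0.41 ± 0.25 (adjusted p = 0.227, limma) and -0.11 ± 0.25 (adjusted p = 0.82, limma) were not called.

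Oligoadenylate synthetases are switched on by double-stranded RNA and make the messenger that activates RNase L, and ISG20 is an exonuclease. In this group of 6, 4 were called lower in Th2 than in Th0 and 3 lower than in Th1. Oasl2, a synthetase-like protein, was at 15.3 and 15.4 RPKM at rest, 44.6, 49.9, 28.7, 20.5, 12.2 and 4.50 RPKM in Th0, 47.1, 25.4, 14.99, 22.1, 9.24 and 3.46 RPKM in Th1 and 14.02, 8.15, 4.72, 3.18, 1.38 and 0.658 RPKM in Th2. It exceeded both resting libraries from 4 to 16 h in Th0 and not at any time in Th2, and its difference was -2.34 ± 0.15 from Th0 (adjusted p = 3.61e-08, limma). Isg20 was at 74.2 and 79.5 RPKM at rest, 48.1, 38.7, 18.7, 9.58, 5.54 and 4.70 RPKM in Th0, 43.4, 33.1, 12.0, 11.9, 6.38 and 5.45 RPKM in Th1 and 58.1, 24.0, 10.2, 4.47, 3.99 and 2.83 RPKM in Th2. In every condition it was below both resting libraries at all 6 times, and the difference of Th2 from Th0 was -0.56 ± 0.16, which is under 2-fold. Oas3, Oas2 and Oas1a had differences of -1.39, -1.19 and -1.05 from Th0 and were called, and Oasl1 had -0.86 ± 0.21 and was not. Of the windows of Oas1a, 57.6% occur in Oas1g or Oas1b as well, so its values are uncertain.

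The cytoplasmic sensors RIG-I (Ddx58) and MDA5 (Ifih1) recognise viral RNA and signal to the interferon genes, and LGP2 (Dhx58) modulates both. Dhx58 was at 23.4 and 23.6 RPKM at rest, 11.8, 12.3, 6.44, 5.71, 7.53 and 3.44 RPKM in Th0, 10.9, 6.47, 5.58, 9.92, 5.76 and 3.82 RPKM in Th1 and 11.5, 4.00, 3.71, 1.89, 2.02 and 1.21 RPKM in Th2. It was close to the same level in all 3 conditions at 4 h, and Th2 was the lowest from 8 h on. The difference from Th0 was -1.09 ± 0.22 and was called, and that from Th1 (-0.98 ± 0.22) was not. Ifih1 was flatter, with 15.4 and 18.6 RPKM at rest, 14.4, 18.3, 17.8, 12.9, 10.2 and 7.29 RPKM in Th0, 19.3, 20.3, 15.9, 15.2, 9.84 and 7.76 RPKM in Th1 and 14.5, 13.9, 9.05, 6.86, 4.99 and 3.88 RPKM in Th2; its difference of -0.66 ± 0.11 was under 2-fold. Ddx58, with -1.03 ± 0.16, was called lower than in Th0 but not lower than in Th1 (-0.62 ± 0.16).

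ZBP1 binds Z-form nucleic acids and can start cell death, ADAR edits adenosines in double-stranded RNA, and PKR (Eif2ak2) halts translation on binding such RNA. Zbp1 was at 55.6 and 58.6 RPKM at rest, 117, 172, 108, 77.5, 58.5 and 37.2 RPKM in Th0, 112, 77.5, 50.6, 81.9, 45.9 and 30.1 RPKM in Th1 and 54.6, 34.9, 20.8, 15.1, 9.30 and 8.69 RPKM in Th2. All 6 Th0 values lay above the Th2 values of the same time, each by more than 2-fold, and the mean difference was -2.11 ± 0.18 (adjusted p = 1.01e-06, limma). Adar was at 60.5 and 59.7 RPKM at rest, 85.9, 61.4, 47.7, 48.9, 49.3 and 38.3 RPKM in Th0, 73.9, 49.0, 41.99, 48.1, 45.8 and 40.0 RPKM in Th1 and 56.0, 45.4, 35.3, 32.4, 30.2 and 23.3 RPKM in Th2. Its difference of -0.58 ± 0.08 was small but had an adjusted p of 6.68e-05 (limma), with Th2 the lowest at all 6 times. The difference of Eif2ak2, -0.996 ± 0.13, was just short of 2-fold.

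The effectors of entry, replication and release included Samhd1, which had the highest RPKM of the 38 genes in every culture; at rest Sp100 was higher (344 and 330 RPKM). SAMHD1 breaks down the nucleotides that viruses need for DNA synthesis. Samhd1 was at 222 and 228 RPKM at rest, 1122, 1186, 750.2, 682, 549.6 and 455 RPKM in Th0, 1158, 609, 438, 665, 469.9 and 363 RPKM in Th1 and 326, 189, 138, 133, 117 and 110.0 RPKM in Th2. The lowest Th0 and Th1 values lay above the highest of Th2. Its differences were -2.25 ± 0.12 from Th0 (adjusted p = 4.56e-09, limma) and -1.87 ± 0.12 from Th1 (adjusted p = 2.62e-08, limma). Tetherin (Bst2) holds budding virus at the cell surface. Bst2 was at 44.98 and 45.6 RPKM at rest, 32.0, 46.4, 46.0, 54.3, 58.0 and 75.8 RPKM in Th0, 38.4, 44.0, 46.5, 71.2, 72.7 and 66.4 RPKM in Th1 and 27.4, 32.7, 37.7, 38.03, 40.8 and 40.5 RPKM in Th2. It was lowest at 4 h in each condition and highest at 20 or 24 h, and the difference of Th2 from Th0 was -0.49 ± 0.09.

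Viperin (Rsad2) makes a chain-terminating nucleotide from CTP, and Cmpk2, its neighbour on chromosome 12, encodes a mitochondrial nucleotide kinase. Rsad2 was at 42.04 and 41.0 RPKM at rest, 14.6, 8.50, 1.85, 1.28, 0.624 and 0.264 RPKM in Th0, 13.7, 6.17, 1.90, 2.40, 0.700 and 0.285 RPKM in Th1 and 15.2, 4.76, 1.05, 0.238, 0.192 and 0.0414 RPKM in Th2. The 3 conditions were alike at 4 h, where Th2 was the highest. Cmpk2 was at 13.9 and 15.3 RPKM at rest, 3.88, 3.21, 0.906, 1.11, 0.918 and 0.443 RPKM in Th0, 3.60, 2.38, 1.11, 2.30, 0.852 and 0.317 RPKM in Th1 and 4.28, 1.35, 0.286, 0.198, 0.213 and 0.159 RPKM in Th2. Neither was called between conditions, with differences of -0.63 and -0.74 for Th2 against Th0, on a scale that understates changes below 0.5 RPKM. Mx1 is a dynamin-like GTPase that blocks influenza virus; the C57BL/6 strain carries a deletion in this gene and makes no functional protein. Its RNA was at 6.31 and 7.69 RPKM at rest, 0.956, 0.835, 0.717, 0.979, 1.33 and 0.763 RPKM in Th0, 0.872, 1.28, 1.03, 1.99, 1.21 and 0.958 RPKM in Th1 and 0.900, 0.975, 0.721, 0.912, 0.731 and 0.604 RPKM in Th2. Mx1 was thus low in all 18 cultures, with no order of the conditions that held over time.

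PARP9 forms a complex with the ubiquitin ligase DTX3L, and their genes lie side by side on chromosome 16 near Parp14. All 4 genes of this group were called lower in Th2 in both comparisons. Parp14 was at 36.2 and 36.2 RPKM at rest, 122, 83.5, 45.7, 42.6, 34.96 and 30.8 RPKM in Th0, 135, 45.8, 34.2, 50.5, 34.1 and 26.1 RPKM in Th1 and 43.0, 18.1, 11.1, 10.6, 9.13 and 7.35 RPKM in Th2. Th2 was the lowest at all 6 times, and the difference from Th0 was -1.92 ± 0.12 (adjusted p = 1.52e-08, limma). Parp12, which inhibits viral replication, was at 5.78 and 6.73 RPKM at rest, 15.1, 10.4, 4.46, 3.43, 2.18 and 1.08 RPKM in Th0, 13.9, 4.97, 2.27, 3.97, 2.04 and 1.54 RPKM in Th1 and 6.12, 3.58, 1.42, 0.575, 0.677 and 0.484 RPKM in Th2, and had the smallest difference of the 4 (-1.30 ± 0.18). Its level was low by 24 h in every condition. Dtx3l was at 35.8 and 32.4 RPKM at rest, 104, 94.0, 53.3, 46.5, 34.96 and 30.6 RPKM in Th0, 105, 45.9, 34.0, 47.8, 29.7 and 25.4 RPKM in Th1 and 38.1, 20.2, 12.8, 13.2, 10.8 and 8.93 RPKM in Th2. Dtx3l and Parp14 had similar courses, well above rest at 4 h in Th0 and Th1 and close to it in Th2.

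TRIM21 is a cytosolic antibody receptor and TRIM25 a ubiquitin ligase that acts on RIG-I. Trim21 was at 25.9 and 25.1 RPKM at rest, 44.7, 47.1, 27.1, 22.2, 19.3 and 15.8 RPKM in Th0, 43.2, 25.3, 17.3, 23.0, 16.4 and 14.04 RPKM in Th1 and 21.9, 12.0, 8.14, 7.96, 7.91 and 8.28 RPKM in Th2, a difference of -1.36 ± 0.12 from Th0. Trim25 had the smallest difference of this group, with 29.5 and 28.6 RPKM at rest, 25.0, 21.5, 19.46, 20.2, 19.7 and 20.8 RPKM in Th0, 27.4, 16.9, 18.4, 23.8, 22.0 and 19.7 RPKM in Th1 and 19.2, 18.4, 16.2, 19.6, 20.8 and 15.8 RPKM in Th2. The ranges of the 3 conditions overlapped, and the difference of -0.20 ± 0.09 had an adjusted p of 0.0877 (limma). Trim30a lay with Trim21, at -1.34 ± 0.14.

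Among the other 8 genes, 7 were tested and 5 were called lower in Th2 than in Th0. Rtp4, a chaperone of membrane receptors that is induced by interferon, was at 22.5 and 23.4 RPKM at rest, 32.0, 42.9, 23.1, 13.8, 9.51 and 5.85 RPKM in Th0, 33.4, 18.5, 11.2, 16.5, 8.03 and 2.90 RPKM in Th1 and 23.1, 10.3, 3.96, 2.79, 1.48 and 1.04 RPKM in Th2. Its difference from Th0 was -1.90 ± 0.23 (adjusted p = 2.85e-05, limma). Tor3a, an ATPase of the endoplasmic reticulum, was at 9.20 and 7.78 RPKM at rest, 7.54, 6.63, 3.64, 2.90, 2.58 and 3.72 RPKM in Th0, 4.63, 3.401, 3.02, 2.81, 1.69 and 2.52 RPKM in Th1 and 7.22, 3.05, 2.52, 3.65, 3.70 and 4.45 RPKM in Th2. From 16 h on it was highest in Th2, and it was the only one of the 36 genes tested with a mean above that of Th1 (0.37 ± 0.16, adjusted p = 0.168, limma). Without the 8 h time point its difference from Th0 was 0.09. Xaf1, a partner of the apoptosis inhibitor XIAP, had a difference of -1.53 ± 0.17, and Sp100, a protein of nuclear bodies, -1.34 ± 0.10. Rnf213, a very large ubiquitin ligase, was at 70.3 and 72.5 RPKM at rest, 33.7, 41.0, 28.3, 25.8, 19.0 and 13.8 RPKM in Th0, 42.01, 19.9, 14.7, 28.2, 17.6 and 12.1 RPKM in Th1 and 24.0, 17.2, 10.5, 8.69, 7.83 and 6.30 RPKM in Th2. None of the 18 cultures reached the level of either resting library. Ifi44, which did not pass the filter, was at 3.24 and 2.60 RPKM at rest and at most 1.31 RPKM in any culture. It was listed at 0 in Th2 at 20 h.

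**Figure D3:**
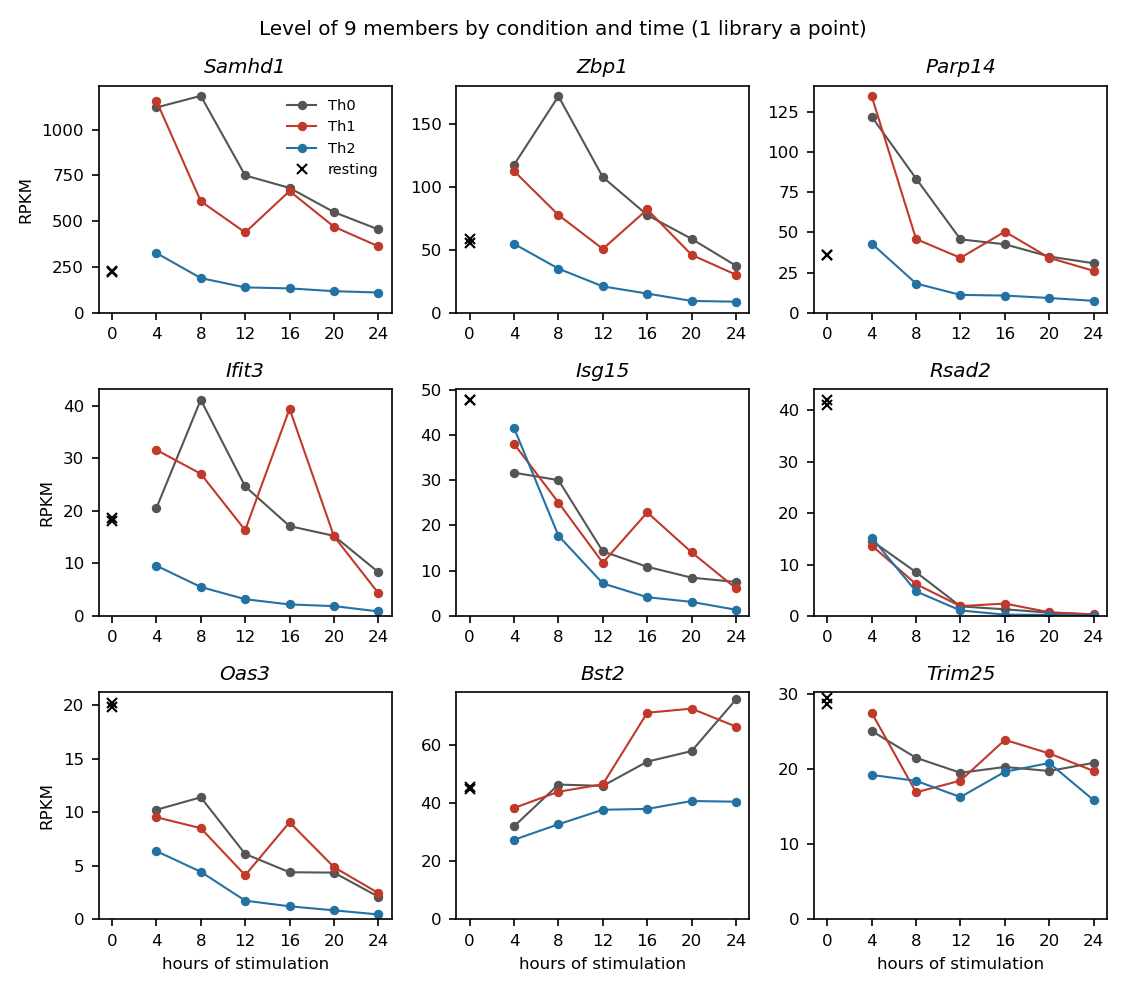
RPKM of 9 members against hours of stimulation in Th0 (grey), Th1 (red) and Th2 (blue), 1 library a point, with the 2 resting libraries as crosses at 0 h. Samhd1 and Parp14 were above rest at 4 h in Th0 and Th1, Rsad2 and Oas3 lay below rest throughout, and Bst2 was lowest at 4 h.

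No member was called between Th1 and Th0 in either direction, against 0.494% of all genes. At an unadjusted p under 0.05 in limma there were 11 of the 36 tested, and 1757 of all 10737 genes. The median log2 difference was -0.17, against -0.01 for all genes. The order of Th1 and Th0 changed with time, as the plot by time point shows. At 4 h 20 of the 38 genes were lower in Th1 than in Th0 and 18 higher. At 8 h 36 were lower, with a median of -0.83, and 8 of them by at least 2-fold, compared with 1.70% of all genes. At 12 h 34 were lower. At 16 h 35 were higher in Th1, with a median of 0.27, and at 24 h 26 were lower again. Among all genes 56.5%, 50.7%, 49.3%, 55.7% and 44.9% were lower in Th1 at 4, 8, 12, 16 and 24 h. Samhd1 at 8 h, for example, was at 1186 RPKM in Th0 and 609 RPKM in Th1, and Zbp1 at 172 and 77.5 RPKM.

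The order at 16 h rested on 1 library of each condition. In Th1 at 16 h, 31 of the 38 genes were at least 1.2-fold higher than both at 12 h and at 20 h (on RPKM + 0.5), a limit set after the values were seen. Among the 36 genes tested this held for 29, and among all genes for 4.92%. In Th0 it held for none of the 38 (2.86% of all genes), and in Th2 for 1 (1.77% of all genes). Ifit3 was at 16.3, 39.5 and 15.2 RPKM in Th1 at 12, 16 and 20 h, and the 16 h value rests on 2233 reads (95% interval 37.8 to 41.1 RPKM). Ifit1 went from 8.79 to 17.8 and back to 8.10 RPKM, and Isg15 went from 11.7 to 22.9 and 14.1 RPKM. Oas2 had the largest step from 12 h, from 2.54 to 7.91 and 3.29 RPKM. Isg20, Ifih1, Adar, Bst2, Trim25, Ifi35 and Tor3a did not show it. As 1 library was made for each time and condition, a change at 16 h and a property of that library cannot be told apart. Without it, 14 members rather than 18 were called lower in Th2 than in Th1, and 24 as before in Th2 than in Th0.

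Relative to resting cells the 38 genes did not move together. Of 37 tested, 3 were called lower at 4 h (7.97% of all 10897 genes were) and none higher (2.61% of all genes). In either direction 5 had an unadjusted p under 0.05 in limma, and 4569 of all 10897 genes did. The 3 were Mx1 (-2.41 ± 0.24, adjusted p = 1.41e-06), Cmpk2 (-1.77 ± 0.46, adjusted p = 0.00691) and Rsad2 (-1.49 ± 0.41, adjusted p = 0.0101, limma). The highest differences were those of Samhd1 (1.74 ± 0.95), Parp14 (1.29 ± 0.83) and Dtx3l (1.13 ± 0.76); the 3 conditions were pooled at each time, and the spread between them is in the SE. The count moved with the libraries used: it was 1 without the second resting library (Mx1) and 2 without the first (Mx1 and Cmpk2). With the Th2 cultures left out, 5 members were called lower (Mx1, Cmpk2, Rsad2, Oasl1 and Dhx58; 8.52% of all genes were) and 7 higher at 4 h (Samhd1, Parp14, Dtx3l, Oasl2, Parp9, Parp12 and Zbp1, named after their values were seen), against 3.2% of all genes called higher. In that fit Samhd1 was 2.34 ± 0.28 above rest (adjusted p = 9.66e-05, limma) and Parp14 1.81 ± 0.23 (adjusted p = 0.000131, limma).

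By condition, 14 of the 38 genes in Th0 and 16 in Th1 were above both resting libraries at 4 h, and 6 were in Th2. These counts, and those of the peaks below, were made for the members only, and the shares of all genes are not known. Samhd1 reached 1122 and 1158 RPKM in Th0 and Th1 from 222 and 228 RPKM at rest, and 326 RPKM in Th2. The highest value of the 6 time points fell at 4 or 8 h for 36 of the 38 genes in Th0 (17 and 19), for 32 in Th1 (31 and 1) and for 36 in Th2 (35 and 1). An 8 h peak was thus seen for 19 genes in Th0 and for 1 each in Th1 and Th2. At 8 h Zbp1 was at 172 RPKM in the Th0 culture, at 77.5 RPKM in the Th1 culture and at 34.9 RPKM in the Th2 culture.

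At later times more members lay below rest. Of the 37 genes tested, 12 were called lower than at rest at 8 h, 18 at 12 h, 19 at 16 h, 22 at 20 h and 25 at 24 h, and none was called higher at any of these times. Among all genes 12.5%, 16.4%, 14.5%, 16.1% and 17.4% were called lower at those times, and 6.42%, 10.7%, 11.2%, 12.9% and 12.7% higher. The median of the members was -2.24 at 24 h, against -0.04 for all genes. The largest falls at 24 h were those of Rsad2 (-5.93 ± 0.41), Cmpk2 (-4.24 ± 0.46) and Isg20 (-4.04 ± 0.34). Bst2 (0.38 ± 0.28), Samhd1 (0.23 ± 0.95) and Ifi35 (-0.30 ± 0.34) stood at the other end, and none of these 3 was called. Ifi35, which forms a complex with NMI, was at 42.05 and 41.5 RPKM at rest, 58.2, 60.6, 48.4, 43.1, 45.6 and 42.2 RPKM in Th0, 54.8, 44.2, 36.2, 50.4, 44.7 and 41.5 RPKM in Th1 and 49.3, 34.1, 24.8, 25.8, 27.9 and 22.0 RPKM in Th2. The sign for Samhd1 at 24 h depended on the conditions pooled, since it was above rest in Th0 and Th1 (455 and 363 RPKM) and below it in Th2 (110.0 RPKM).

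All 6 genes of the oligoadenylate synthetase group and all 3 RIG-I-like receptor genes were called lower at 24 h. In the PARP group 1 of 4 was called, Parp12. At 24 h every one of the 38 genes was below both resting libraries in Th2, 36 were in Th1 and 35 in Th0. These counts were made for the 38 genes only, and the shares of all genes are not known. As a ratio to the resting mean, the median gene was at 0.293 for Th0, 0.245 for Th1 and 0.0894 for Th2. The Poisson interval of Isg15 in Th2 at 24 h, 0.878 to 1.97 RPKM on 26 reads, lay far below the 47.8 RPKM of both resting libraries.

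Markers of other cells moved with time as well. The 17 monocyte and macrophage markers found in the table, of 18, summed to between 977 and 995 RPKM at rest, 94.6 to 135 RPKM at 4 h and 21.3 to 31.1 RPKM at 24 h, and 13 of the 14 tested were called lower at 4 h. The 12 B cell markers summed to 90.3 to 99.95 RPKM at rest and 12.2 to 20.9 RPKM at 24 h, and the 9 NK cell markers to 253 to 261 and 30.8 to 65.8 RPKM. None of these markers was at 0 in both resting libraries. The 5 CD8 T cell markers summed to 182 to 186 RPKM at rest and 31.3 to 47.4 RPKM at 24 h. The 10 neutrophil markers, of which Ly6g was at 0 in both resting libraries, summed to 15.5 to 17.1 RPKM at rest and 2.92 to 4.37 RPKM at 24 h. The 9 red blood cell markers in the table went from at least 38940 RPKM at rest to at most 212 RPKM at 24 h, with the 4 h cultures still between 29430 and 47170 RPKM. Without the haemoglobin genes the counts of members called were 3 at 4 h and 25 at 24 h, as with them. The part of these cells in the falls from rest was not tested. Between Th2 and Th0, none of the 9 CD4 T cell markers tested, none of 8 B cell markers and 2 of 12 monocyte and macrophage markers were called lower. Of the 9 NK cell markers, 1 was called higher in Th2 than in Th0, 3 higher in Th1 than in Th0 and 2 lower in Th2 than in Th1, with a median of -0.69 in the last comparison. Between Th2 and Th1, none of the 9 CD4 T cell markers was called, 1 of 8 B cell markers was called higher and 1 of 12 monocyte and macrophage markers lower. The 8 markers of plasmacytoid dendritic cells, which make much type I interferon, summed to 69.9 to 71.0 RPKM at rest, 107 to 269 RPKM in Th0, 159 to 361 RPKM in Th1 and 65.9 to 99.0 RPKM in Th2, and 1 of the 5 tested was called lower in Th2 than in Th0. Klk1 and Cox6a2, which are among the 8, were at 0 in all 3 cultures at 24 h, and the list holds Irf8, itself an interferon-regulated gene. Irf8 alone was at 24.7 and 23.2 RPKM at rest and at 249, 345 and 52.6 RPKM in Th0, Th1 and Th2 at 24 h. The marker called lower in Th2 than in Th0 was Irf8 (-1.32 ± 0.21). At 24 h against rest, 4 of the 6 markers tested were called lower and 1, again Irf8, higher, with a median of -1.61. The part of these cells in the difference between conditions was not tested.

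**Figure D4:**
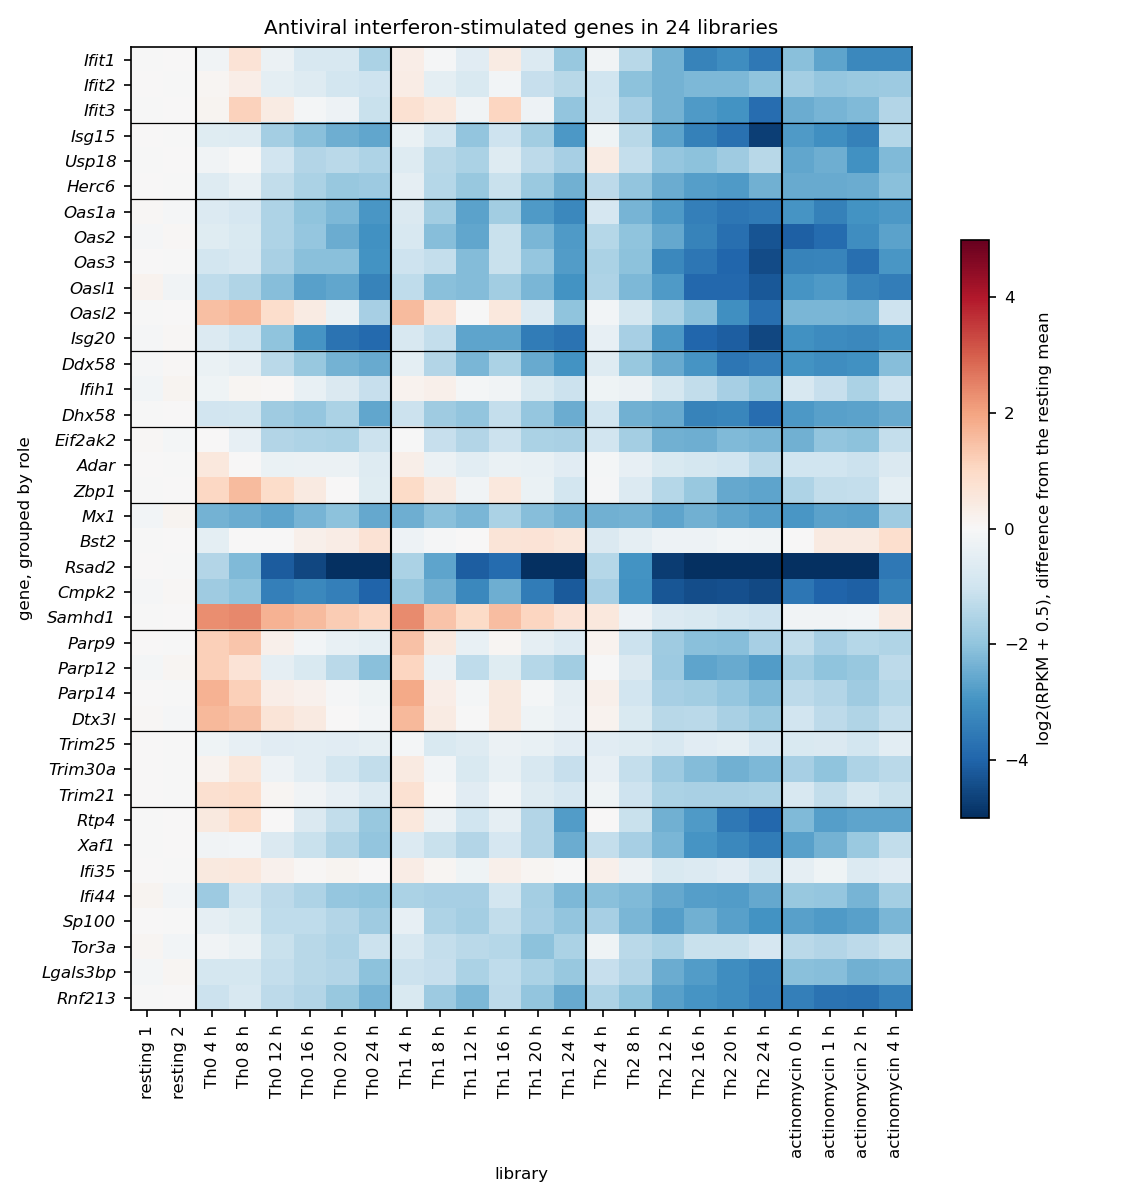
Difference in log2(RPKM + 0.5) from the resting mean for the 38 genes (rows, grouped by role) in the 24 libraries (columns), with the colour scale cut at 5 in either direction. In Th2 from 12 h on nearly all rows are blue. Samhd1, Oasl2, Zbp1 and the PARP group were above rest (red) at 4 h in Th0 and Th1 and at 8 h in Th0. Samhd1 stayed above rest to 24 h in Th0 and Th1.

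Whether the difference between conditions grew over time was tested as a difference in slope, given as the change from 4 to 24 h. Against Th0, 2 of the 36 genes were called lower (3.21% of all genes were): Isg15 (-2.08 ± 0.49, adjusted p = 0.0281) and Lgals3bp (-1.24 ± 0.27, adjusted p = 0.0218, limma). Against Th1 the called genes were again Isg15 (-2.29 ± 0.49, adjusted p = 0.0417) and Lgals3bp (-1.66 ± 0.27, adjusted p = 0.00951, limma), where 0.689% of all genes were called lower. Lgals3bp, a secreted glycoprotein that binds galectins, was at 86.2 and 100.1 RPKM at rest, 50.4, 50.3, 40.4, 35.8, 33.3 and 22.1 RPKM in Th0, 43.7, 41.1, 30.4, 38.5, 31.1 and 25.0 RPKM in Th1 and 41.6, 33.5, 16.4, 13.0, 10.4 and 8.42 RPKM in Th2. Its values were thus close at 4 h and between 2-fold and 3-fold apart at 24 h. Against Th0 the trend depended on single time points. Without 4 h none was called lower and 4 were called in the other direction, as were 7.35% of all genes: Parp9 (1.45 ± 0.43), Trim21 (1.25 ± 0.32), Ifit2 (1.67 ± 0.49) and Tor3a (1.69 ± 0.45). Without 20 h no member was called in either comparison, and without 8, 12 or 24 h 1 was called against Th0. Without 4, 12 or 24 h 1 was called against Th1.

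The interferon pathway itself was measured in 30 genes, all of them in the table, of which 21 passed the filter. The type I interferon genes in the list were at or near 0 in all libraries. Ifnb1 was listed at 0 in 21 of the 24 and at most at 0.0968 RPKM. Ifng, the gene for IFN-γ, was at 29.7 and 28.5 RPKM at rest, 14.9, 19.1, 46.2, 65.0, 75.1 and 94.5 RPKM in Th0, 206, 414, 451, 499.9, 428 and 388 RPKM in Th1 and 60.5, 62.6, 71.4, 73.0, 75.0 and 66.2 RPKM in Th2. Its RNA was higher in Th2 than in Th0 from 4 to 16 h, in cultures that held antibody to the protein. The differences of Th2 were 0.66 ± 0.26 from Th0 (adjusted p = 0.0679, limma) and -2.49 ± 0.26 from Th1 (adjusted p = 7.09e-06, limma).

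Of the 21 signalling genes, 8 were called lower in Th2 than in Th0 and 5 lower than in Th1. Irf1, a factor that answers to IFN-γ, differed by -2.20 ± 0.13 from Th0. Stat2 differed by -1.46 ± 0.12, Irf9 by -1.08 ± 0.10 and Irf7, which amplifies the production of interferon, by -1.66 ± 0.23. At the other end of the list were Ifng and Jak2 (0.31 ± 0.08), a kinase of the IFN-γ receptor. The type I receptor genes Ifnar1 and Ifnar2 had differences of -0.55 ± 0.08 and -0.52 ± 0.09, under 2-fold, and Ifngr1, a chain of the IFN-γ receptor, one of -1.09 ± 0.16, which was called.

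Among 37 other interferon-stimulated genes tested, of a list of 40, 17 were called lower in Th2 than in Th0, with a median of -0.91, and 12 lower than in Th1, with a median of -0.60. The largest difference from Th0 was that of Ifit1bl1 (-3.10 ± 0.27), an Ifit1-like gene, followed by Ifit3b (-2.40 ± 0.24). The highest were Pnpt1 (0.33 ± 0.08), a mitochondrial ribonuclease, and Trex1 (0.10 ± 0.09), a DNA exonuclease. At 24 h 25 of these 37 genes were called lower than at rest and 1 higher.

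The cells given actinomycin were compared with the 16 h cultures first. At 0 h, 37 of the 38 genes were below both the Th0 and the Th1 culture at 16 h, where 46.4% of all genes passing the filter were, and 28 of them were above the Th2 culture. The skewing of these cells is not given, and none is inferred. Their titles lack the tag that the cultures carry, so a difference in preparation cannot be told apart either. The 9 NK cell markers summed to 13.8 to 25.9 RPKM in the 4 libraries, and to at least 30.8 RPKM in every culture. For the 12 B cell markers the sums were 4.70 to 5.96 RPKM and at least 12.2 RPKM. The 5 CD8 T cell markers summed to 20.5 to 26.1 RPKM, and to at least 31.3 RPKM in every culture. For the 9 CD4 T cell markers the sums were 2119 to 2344 RPKM, and at most 2101 RPKM in any culture. The 17 monocyte and macrophage markers, at 88.05 to 106 RPKM, lay within the range of the cultures over all times. That range ran from 94.6 to 135 RPKM at 4 h down to 21.3 to 31.1 RPKM at 24 h, and no sum was taken at 16 h alone. The part of these cells was not tested. Of the 38 genes, 33 passed a filter of a mean of at least 1 RPKM over the 4 libraries. RPKM gives shares of the remaining RNA, so a gene whose RNA decays less than the average rises.

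The median slope of the 33 genes was 0.09 log2 units per hour, against 0.0024 for all 10571 genes, and 23 of the 33 slopes were above 0, as were 50.8% of all. With 4 libraries the two-sided exact permutation test of a single slope cannot give a p below 0.0417, too large to pass a correction over the members, so slopes are a description. The slope without the 4 h library had a median of -0.08, so its direction rested on that library. At 4 h, 30 of the 33 genes were higher than at 2 h, as were 58.2% of all genes, with a median ratio of 1.34 against 1.06.

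The lowest slopes were those of Ifit1, Rtp4 and Lgals3bp. Ifit1 went through 2.77, 1.75, 0.984 and 0.980 RPKM at 0, 1, 2 and 4 h (-0.35 per hour), with 95% intervals of 2.38 to 3.19 RPKM at 0 h and 0.720 to 1.30 RPKM at 4 h that do not overlap. Rtp4 was at 4.62, 2.99, 3.26 and 3.27 RPKM (-0.09 per hour) and Lgals3bp at 21.3, 20.97, 17.4 and 18.2 RPKM (-0.06 per hour). The flattest were Isg20, at 9.09, 8.35, 7.84 and 9.07 RPKM, Ifit2, at 7.15, 5.89, 6.36 and 6.53 RPKM, and Rnf213, at 6.15, 5.09, 4.97 and 6.22 RPKM.

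The highest slopes were those of Oas2, at 0.589, 0.782, 1.61 and 2.41 RPKM (0.49 per hour), Rsad2, at 0.843, 0.611, 0.327 and 3.03 RPKM (0.45 per hour), and Xaf1, at 4.11, 5.45, 7.87 and 12.4 RPKM (0.39 per hour). Oas2 and Xaf1 were higher at each later time, as were Ifit3, Dhx58 and Zbp1, whereas Rsad2 first went down. Isg15 went down and then up, at 6.32, 5.22, 4.09 and 17.7 RPKM, the last on 241 reads (95% interval 15.5 to 20.0 RPKM) against 58 reads at 2 h (3.11 to 5.29 RPKM). Zbp1 was at 19.3, 23.9, 24.8 and 40.4 RPKM. Bst2 was at 45.8, 62.4, 62.1 and 82.3 RPKM and Samhd1 at 198, 196, 207 and 304 RPKM. Ifit1 and Ifit3 went opposite ways, since Ifit3 was at 2.92, 3.24, 3.61 and 6.29 RPKM. As given above, 51.2% of the windows of Ifit3 also occur in Ifit3b.

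**Figure D5:**
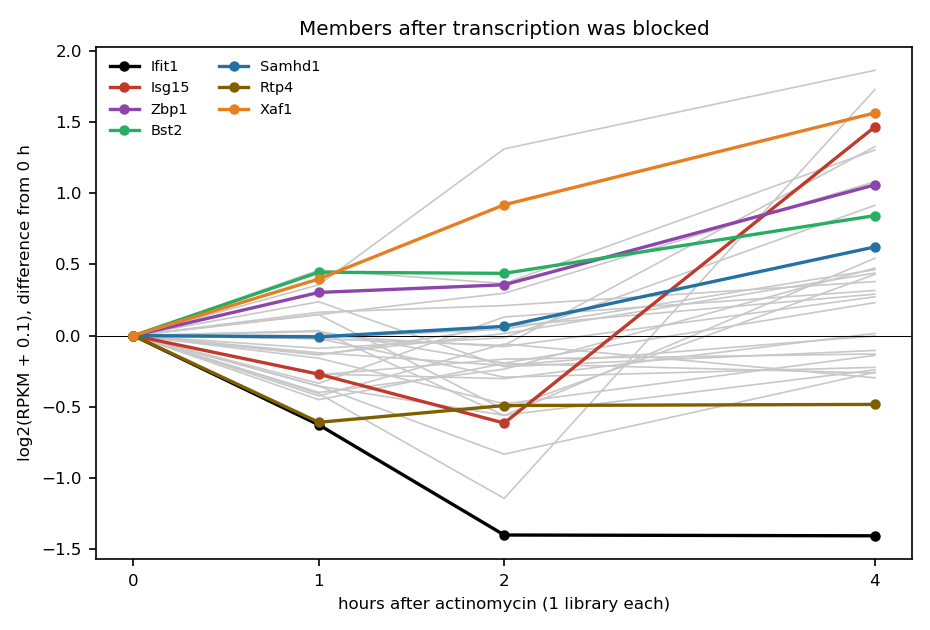
Difference in log2(RPKM + 0.1) from the 0 h library against hours after actinomycin for the 33 members that passed the filter, 1 library a time, with 7 of them in colour. Ifit1 went down to 0.980 RPKM at 4 h, Xaf1 and Isg15 went up to 12.4 and 17.7 RPKM, and Isg15 was below its start at 2 h.

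Members with and without the core were set side by side. Of the 15 genes with a core, 14 were tested, 8 of these were called lower in Th2 than in Th0, and the median difference was -1.02. Of the 14 without one, all were tested, 10 were called lower, and the median was -1.22. Of the genes shown above, Isg15, Ifit1 and Ifit3 with 3 cores had differences of -1.004, -1.825 and -2.47. Oas3 and Bst2 with 2 cores had -1.39 and -0.49, and Rsad2 with 1 had -0.63. Bst2 held the gamma-activated site as well. With the gamma-activated site and no core in the window, Samhd1 had -2.25, Ifit2 -1.53, Ifi35 -0.73 and Isg20 -0.56.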

How the data were processed

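Spleen CD4+ T cells were profiled by RNA sequencing in 24 libraries. The authors deposited 1 table of RPKM values for 22010 entries, 1 of them without a name, and 4073 entries were at 0 in every library. The submitters' processing notes name BWA and GRCm38; the version of BWA and the counting of reads are not given in the sources used here. A gene of the interferon signalling list is not reported here. The 38 genes, their roles and the other gene lists were chosen with earlier results of these data known.

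RPKM values were analysed as log2(RPKM + 0.5) where the mean over the libraries fitted reached 1 RPKM, with limma 3.58.1 (intensity trend, R 4.3.3) and Benjamini-Hochberg adjustment over all genes tested. Conditions were compared over 18 cultures with time point as a factor, time points against rest over 20 libraries grouped by time, and trends as slopes on hours, given over 20 h. Genes were called at an adjusted p under 0.05 and at least 2-fold. After actinomycin, slopes of log2(RPKM + 0.1) on hours were fitted. Mapped reads and, for 9 members, read counts were recovered from the steps of the RPKM values (tolerance 0.02 reads), with exact Poisson 95% intervals; for the other members the depth behind a value is unknown. Sharing of sequence between genes was taken from 50-base windows of GENCODE transcripts, and promoters from RefSeq (GRCm38.p6). Python 3.11.15, numpy 2.4.6, pandas 2.3.3 and scipy 1.17.1 were used, and the fits were tested on simulated data.

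Values in every library are given, within each role, for the members with the largest and the smallest difference of Th2 from Th0, the 3 largest rises and falls from rest at 4 and 24 h, and the 3 steepest falls and 3 flattest slopes after actinomycin; other members are given where a result turns on them. Alternatives were other pseudocounts, filters and scalings, no intensity trend, and leaving out time points, conditions, libraries or the haemoglobin genes.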

Additional observations from a re-analysis of the deposited data

Results flagged for a closer look

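The difference of Th2 from the other conditions changed over time for 2 of the 36 members tested, by the test of the difference in slope itself. Of all genes, 3.21% were called lower in this test against Th0 and 0.689% against Th1. At an unadjusted p under 0.05 in limma there were 5 members against Th0, and 2466 of all 10737 genes. Against Th1 there were 12 members, and 1957 of all 10737 genes. The 2 calls are of single genes and are not read as a trait of the members as a set. For Isg15 the difference from Th0 changed by -2.08 on the log2 scale from 4 to 24 h (limma, adjusted p = 0.0281) and that from Th1 by -2.29 (limma, adjusted p = 0.0417); in reads, Isg15 at 4 h rested on 617 in Th2 and 583 in Th0, and at 24 h on 26 and 152. For Lgals3bp the changes were -1.24 against Th0 (limma, adjusted p = 0.0218) and -1.66 against Th1 (limma, adjusted p = 0.00951). Without the 20 h time point neither gene was called in either comparison, and without the 4 h time point no member was called lower against Th0 and 4 were called in the other direction, against 7.35% of all genes.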

How the results depend on the processing

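Over all alternatives run, between 19 and 28 members were called between Th2 and Th0, between 13 and 22 between Th2 and Th1 (13 without the 16 h time point), none between Th1 and Th0 and between 19 and 29 at 24 h against rest. The counts that follow take in calls in either direction. The count of 3 at 4 h was 1 with a pseudocount of 0.1. It was 10 with only the 4 h and resting libraries, where Samhd1 was called higher. With the filter at 5 RPKM it was 1, and Mx1 and Cmpk2 were then not tested. With a resting library or a condition left out it went from 1 to 12, the 12 being those called lower or higher without the Th2 cultures. The count of 2 for the trend of Th2 against Th0 was 0 with no filter and 0 to 4 with a time point left out; that against Th1 was 1 with a pseudocount of 1, no filter, median-of-ratios, upper-quartile or quantile scaling, or no intensity trend, and 0 to 2 with a time point left out. With a library left out the median slope after actinomycin went from -0.0826 to 0.14. Of 540 alternatives for single genes, 499 kept direction and side of the threshold, 32 lost the call, 4 gained it and 5 reversed. Tor3a in Th2 against Th0 was at 0.09 without 8 h and at 0.13 over 12 to 24 h only, Ifi35 at 24 h was at 0.0011 without the Th2 cultures, and Samhd1 at 24 h was at -0.17 without the Th0 and at -0.0057 without the Th1 cultures. With a time point left out Tor3a went from -0.20 to 0.0899, and with a condition left out Ifi35 went from -0.46 to 0.0011 and Samhd1 from -0.17 to 0.85. The causes were not tested. At 24 h the median of all genes was at -0.04, at 0.10 with median-of-ratios scaling and at 0.13 with quantile scaling. The Th1 library at 16 h was left out only after the data had been seen. The conditions were matched by time point in each comparison between them; no block on replicate numbers could be fitted because only the resting libraries carry them.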
